A study of Mus musculus with 8 samples.

Results

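The genes described here encode core and regulatory proteins of the spliceosome: the small nuclear ribonucleoprotein (snRNP) proteins of the Snrp genes, the SF3a and SF3b subunits, the SR proteins of the Srsf genes and the heterogeneous nuclear ribonucleoproteins (hnRNPs) of the Hnrnp genes. They were chosen by symbol alone, as every non-control probe whose gene name began with Snrp, Sf3a or Sf3b and a digit, Srsf, the older Sfrs and a digit, or Hnrnp. This gave 91 probes of 52 genes among the 23737 genes that a probe of the array named, and each gene was read from its probe with the highest mean signal over the 8 arrays. The 52 members were 8 Sm core proteins, 4 proteins specific to the U1 or U2 snRNP, 9 SF3 subunits, 11 SR proteins and 20 hnRNPs.

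The transcripts of 8 single cells from the myocardium of the mouse heart tube were measured at embryonic day 8.5, at the stage of 9 somites, with 1 one-colour array per cell. The 4 WT cells carried intact Mesp1 alleles and homozygous floxed Sox17 (Mesp1+/+ Sox17 flox/flox), and the 4 Sox17 KO cells carried the same floxed alleles with a Cre recombinase in Mesp1 (Mesp1Cre/+ Sox17 flox/flox), so the floxed allele was shared by both groups and Mesp1Cre was present in the KO cells alone. Mesp1 is active in the early mesoderm that forms the heart, and the product of Sox17 is a SOX transcription factor known for its part in endoderm and in the precursors of endothelium and endocardium. The comparison addresses whether deletion of Sox17 in mesoderm alters transcripts in myocardial cells. The labels name no embryo or litter for any cell, so each genotype was 1 sample of 4 cells, no test was possible, and every SD below is the spread between 4 cells. The WT arrays shared 1 slide and the KO arrays shared the other, and the effects of slide and of genotype cannot be told apart.

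Splicing begins when the U1 snRNP binds the 5′ splice site and the U2 snRNP binds the branch site of an intron. A ring of Sm proteins forms the core of these particles around the small nuclear RNA, and the SF3a and SF3b complexes belong to the U2 snRNP, where they hold it at the branch site. SR proteins bind exonic sequences and generally promote the use of nearby splice sites, whereas hnRNPs coat nascent transcripts and often oppose that use. The balance of SR proteins and hnRNPs is known for setting alternative splicing in developing heart and muscle.

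Probe sequence bears on which transcript a value belongs to, and several members have near-identical copies elsewhere in the genome. All sequences below are 30-base stretches of the 60-base probes as deposited, read 5′ to 3′ in the sense of the transcript, with positions of the whole probe in build mm9. The chosen probes of Hnrnpf and Hnrnph1, which encode closely related hnRNPs, matched at 49 of 58 aligned bases, more than those of any other pair of members, and the next pair matched at 29 of 56. In the stretch shown, the capitals mark the 4 bases at which they differ.
Hnrnpf: ctttcTttgtaCtgtgatttcCttttGggt
Hnrnph1: ctttcAttgtaTtgtgatttcTttttAggt
Cross-hybridisation between these transcripts was not tested, and the values of both genes are uncertain for that reason. The chosen probe was placed by the files on another chromosome than the RefSeq gene (assembly GRCm38.p6, used for names and chromosomes only) for 6 members, Snrpg, Snrpd2, Hnrnph1, Hnrnpf, Hnrnpa1 and Hnrnpa3, and a signal from these probes may come from a copy of the gene.

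Some probes carry the polyadenylation signal AATAAA, which lies near the end of a transcript and is shown in capitals. It was found on the sense strand in 10 of the 91 probes of members, or 11.0%, and in 13.5% of all probes with a gene symbol. The chosen probe held it in 4 of the 52 members, or 7.69%. Among them were Srsf4, the member with the largest difference between the genotypes, and Snrpd2, the Sm protein with the largest difference towards the KO cells.
Srsf4, chr4:131457553-131457612, plus strand: ccattaaatttgAATAAAgactatttttgc
Snrpd2, chr10:127449210-127449269, plus strand: cagtgggcgagaAATAAAaccctgtgcttt
Hnrnpa2b1, other probe, chr6:51410931-51410990, minus strand: tatttactgtctAATAAAatataccttact

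The labelled tissue was compared with markers. The authors had assigned each single-cell cDNA to a cell type by PCR of marker genes, so the markers are no independent check of the label. All 10 myocardial genes examined, among them Myh6, Tnnt2, Actc1 and Nkx2-5, were well above background in all 8 cells, with a mean log2 signal over the 10 genes of 14.72 to 15.15 in WT and 15.26 to 15.57 in KO cells. Of 10 endothelial and endocardial markers, all 8 cells detected Kdr and Plvap, no cell detected Cdh5, Tek, Nfatc1, Emcn or Npr3, and all 5 erythroid markers were undetected. At most 1 each of the endoderm, proepicardium and neural crest markers was detected in any cell. The mean over the endothelial list was 5.98 to 6.02 in WT and 5.97 to 6.10 in KO cells, and the part of other cell types in the results was not tested further. The Sox17 probe was not well above background in any cell, WT cells included, so it checks no genotype label. The arrays detected 4561 to 7367 of the 23737 genes per cell.

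The spliceosome genes were detected in fewer KO than WT cells. A member counted as detected in a cell when the scanner software marked its signal as well above background. The WT cells 1 to 4 held 35, 42, 42 and 41 detected members, and the Sox17 KO cells 1 to 4 held 33, 29, 32 and 38. The ranges overlapped through WT cell 1, which was below KO cell 4, and the means were 40.0 ± 3.37 and 33.0 ± 3.74 (SD, n = 4 cells each).

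The KO cells also detected fewer genes of every kind, 22.5% ± 4.01 of all genes against 26.9% ± 4.01 in the WT cells. The KO mean was 82.5% of the WT mean for members and 83.5% for all genes, so the members were detected less often in about the proportion of the whole array, whose part in their count was not tested further. KO cell 1 departed from this pairing. It detected 27.8% of all genes, more than WT cells 1 and 2, but 63.5% of the members, fewer than any WT cell. Of the 52 members, 22 were detected in more WT than KO cells, 6 in more KO than WT cells and 24 in equal numbers. Among the 40 members detected in at least 4 of the 8 cells, 15 favoured WT and 5 favoured KO cells. Of all genes detected in at least 4 cells, 31.2% favoured WT and 11.8% favoured KO cells, so the direction was that of the whole array.

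**Figure D1:**
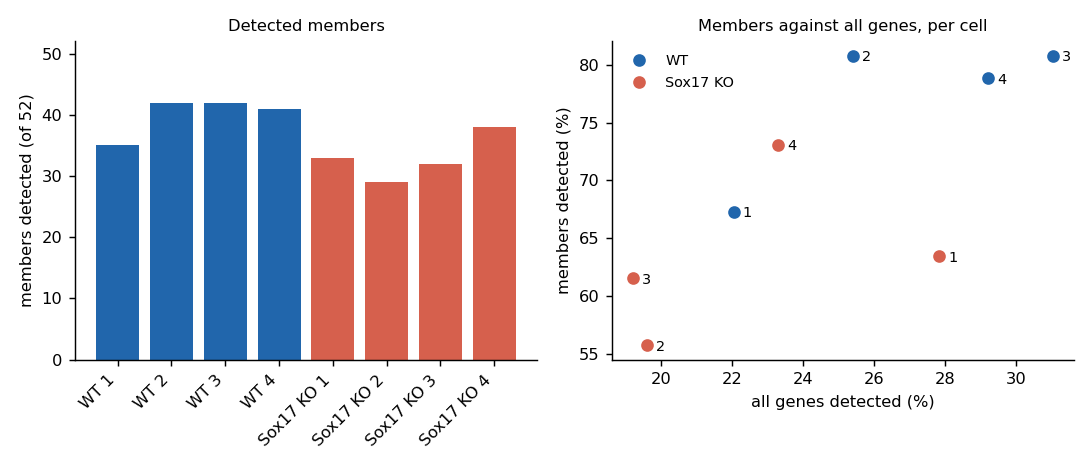
Members detected per cell (left, count of 52) and the percentage of members detected against the percentage of all genes detected in the same cell (right), with WT cells in blue and Sox17 KO cells in orange and points numbered by cell. KO cell 1 detected 27.8% of all genes but 63.5% of members, whereas the WT cells detected 67.3% to 80.8% of members.

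The differences in detection were unequal between the families. The hnRNPs were detected in 65 of 80 combinations of member and cell in WT and 48 of 80 in KO, and the SR proteins in 30 and 22 of 44. The SF3 subunits were close to even, at 29 and 27 of 36, and the Sm proteins were detected slightly more often in KO than in WT cells, at 24 and 22 of 32. The proteins specific to U1 or U2 stood at 14 and 11 of 16. For the hnRNPs, WT cells 1 to 4 held 14, 18, 16 and 17 detected members and KO cells 1 to 4 held 11, 11, 12 and 14. For the SR proteins the counts were 7, 8, 9 and 6 in WT and 6, 6, 4 and 6 in KO cells. For the U1 and U2 proteins they were 4, 3, 4 and 3 in WT and 2, 3, 3 and 3 in KO cells. In these families the genotypes met at a single value, which several cells shared in the SR and in the U1 and U2 proteins. The counts of the SF3 subunits and the Sm proteins overlapped. The KO mean was 73.8% of the WT mean for hnRNPs, 73.3% for SR proteins and 78.6% for U1 and U2 proteins, beside 83.5% for all genes. Srsf12, Hnrnph3 and Hnrnpl, which encode an SR protein and a pair of hnRNPs, were detected in none of the 8 cells.

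**Figure D2:**
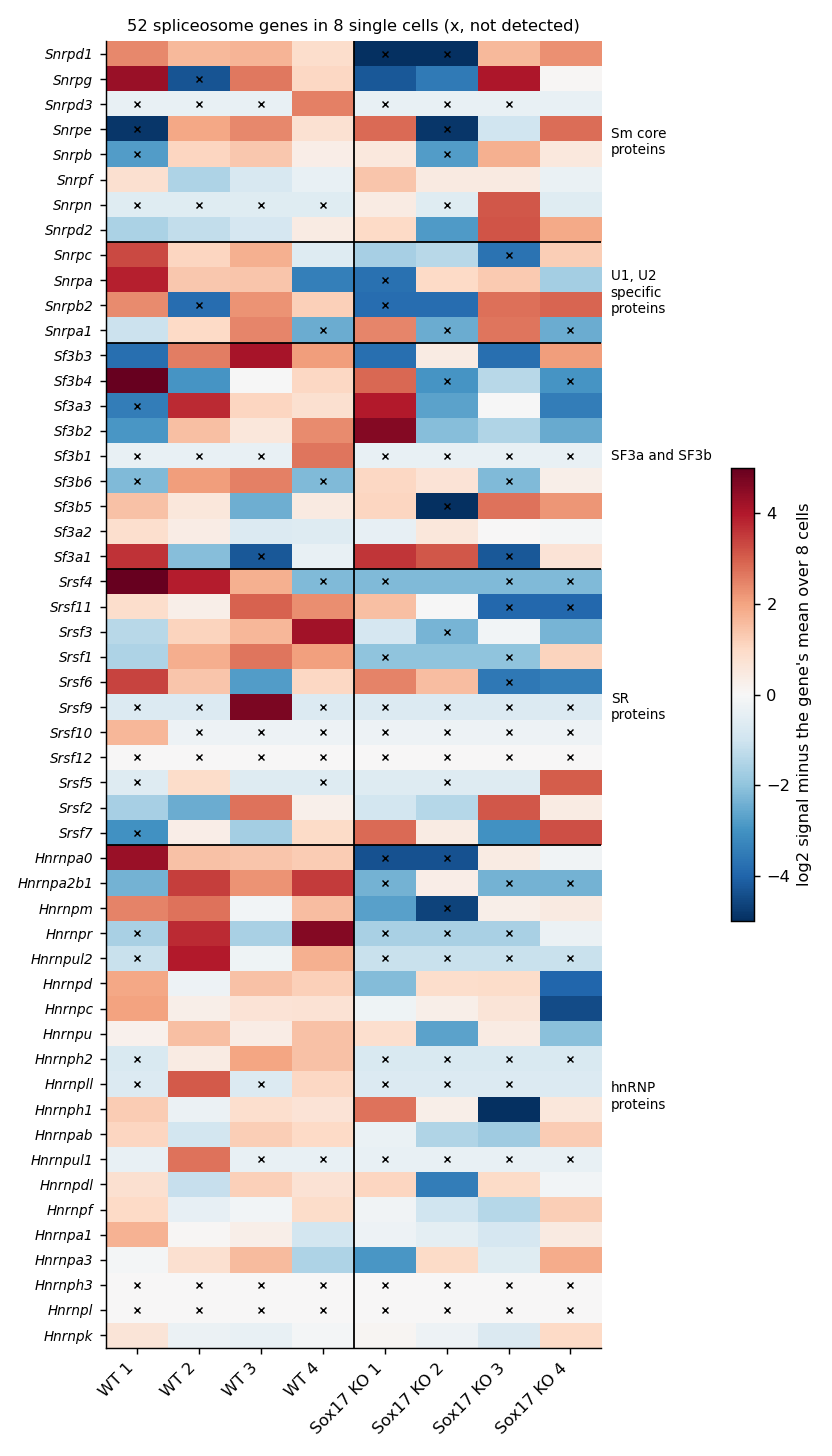
Log2 scaled signal of each member in each of the 8 cells, minus the member's mean over the 8 cells (colour, log2 units, red above and blue below), grouped by family with crosses where the signal was not well above background. In the hnRNP block the KO columns are mostly blue or crossed, whereas the Sm block holds both colours in both genotypes.

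Signals were scaled between arrays on the log2 scale, and values under 50 were set to that floor, 5.64 on the log2 scale. The authors used the same floor value but name it before their scaling to the 50th percentile of each array, and they also normalized each gene to its median, which was not done here. The difference of a member is its mean over the 4 KO cells minus its mean over the 4 WT cells. Over all 52 members the median difference was -0.88, with the middle of the distribution from -2.17 to 0.00 (quartiles), and 38 members were below 0, 11 above and 3 at 0. The median over all 23725 genes with a value in every cell was 0.00, but most of these genes sit at the floor in all cells. Over the genes detected in at least 4 cells it was 0.00 as well, with 45.5% of genes below and 42.2% above 0.

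The study's own size rule is a factor of at least 5. By it 11 of the 52 members (21.2%) were lower and 0 were higher in the Sox17 KO cells. The share of all genes at least 5-fold lower was 3.19%, and of those at least 5-fold higher 0.839%. Since the members are largely genes that the cells transcribe, the nearer background is that of genes read above background in 4 or more cells, of which 10.0% were lower and 2.62% were higher. The 11 lower members were all among the 40 members that passed this filter, though a gene can pass through the genotype in which it is high, so the share of those 40 is not given as support. At a factor of 2, 25 members were lower and 4 higher, where 10.9% of all genes were lower and 5.23% higher. With so few cells and no test these counts describe the 8 cells.

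**Figure D3:**
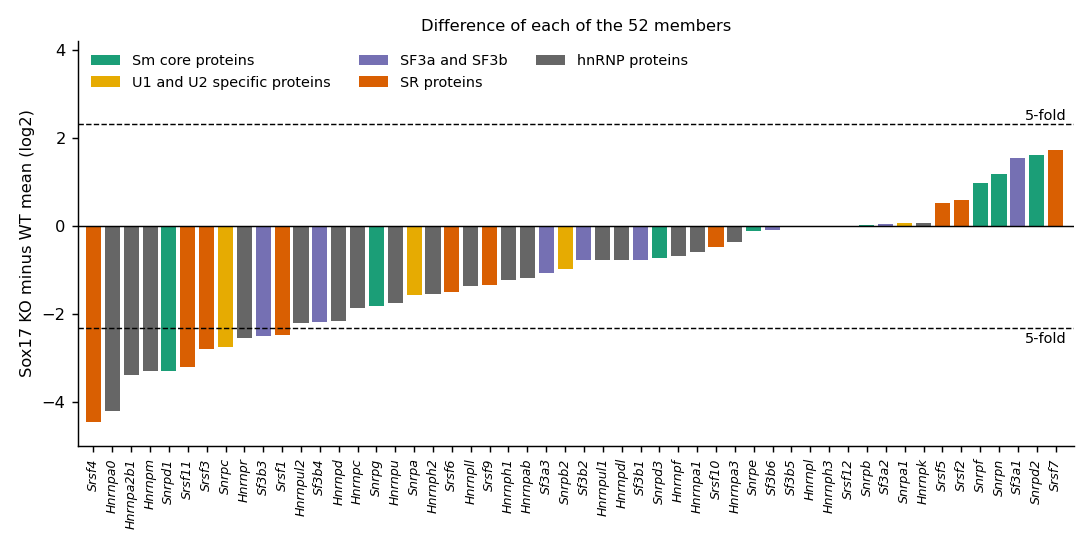
Mean log2 signal of the 4 Sox17 KO cells minus that of the 4 WT cells for each of the 52 members, ordered by value and coloured by family, with dashed lines at a factor of 5 (2.32 on the log2 scale). The bars run from -4.45 for Srsf4 to 1.72 for Srsf7, with 11 past the lower line and 0 past the upper line.

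The lower means came largely from cells at the floor. Of the 208 values of members in WT cells 55 were at the floor, or 26.4%, against 90 of 208, or 43.3%, in the KO cells. Over all genes detected in at least 4 cells the shares were 41.4% and 47.0%. For the 11 lower members, 25 of the 44 KO values were at the floor, and of the other 19 values 9 were at or above the lowest WT value that cleared the floor. The floor values were spread over the KO cells, with 7, 7, 7 and 4 of the 11 members at the floor in KO cells 1 to 4 and 3, 0, 1 and 1 in WT cells 1 to 4. No single KO cell therefore lacked all of them.

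Genes read in every cell are the complement of this. Of the 16 members detected in all 8 cells, 1 was at least 5-fold lower and 0 were at least 5-fold higher, beside 2.80% and 1.42% of the 2250 genes of that kind. Their median difference was nevertheless -0.72, with 11 of 16 below 0, whereas the median of those 2250 genes was 0.13 and 58.4% of them were above 0. Of the 16, 10 were hnRNPs, all of them below 0 except Hnrnpk (0.06), so the low median was mainly that of the hnRNPs. The rest lay on both sides, with Snrpd2 (1.61), Snrpf (0.98), Srsf2 (0.58) and Sf3a2 (0.04) above 0 and Sf3b2 (-0.78) and Sf3b3 (-2.51) below. None of the 16 had all of its KO values on 1 side of its WT values, a pattern that 0.933% of such genes showed with the KO cells lower and 3.24% with the KO cells higher.

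The Sm core proteins form the ring on the small nuclear RNA. Their median difference was -0.05, with 4 members below and 4 above 0, 1 of 8 at least 5-fold lower and 0 higher. Snrpd1 was the lower member. In log2 signal, WT cells 1 to 4 read 13.30, 12.54, 12.58 and 11.79, whereas KO cells 1 to 4 read 5.64, 5.64, 12.52 and 13.20. KO cells 3 and 4 were thus within the WT range and KO cells 1 and 2 were at the floor and undetected, which gave a difference of -3.30 (means 12.55 ± 0.62 and 9.25 ± 4.18, SD, n = 4 cells each). Without KO cell 1, or without KO cell 2, it was -2.10 and no longer 5-fold.

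The other ring proteins moved from cell to cell in their own ways. Snrpg was at 14.25, 5.64, 12.59 and 10.96 in the WT cells and at 5.70, 6.41, 14.00 and 10.02 in the KO cells, so that a low cell occurred in both genotypes and the difference of -1.83 lay within the spread of either group (SD 3.73 and 3.81). Snrpe was at the floor in WT cell 1 and KO cell 2 and between 9.53 and 13.33 in the other 6 cells, with a difference of -0.12. Snrpb was at the floor in the same pair of cells and differed by 0.02. Snrpf was among the steadiest members, at 11.40, 9.07, 9.79 and 10.22 in WT and 11.97, 11.06, 11.07 and 10.27 in KO cells, and its difference of 0.98 was about the size of the SD between WT cells, 0.97.

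Snrpd2 had the highest difference of the Sm proteins, 1.61, below 5-fold. Its values were 10.62, 10.94, 11.35 and 12.60 in WT cells and 13.19, 9.36, 15.31 and 14.09 in KO cells, so 3 KO cells were above every WT cell and KO cell 2 was below all of them. Leaving out KO cell 2 took the gene past 5-fold, as did the median of cells in place of the mean. Snrpn, which encodes a protein closely related to Snrpb and is imprinted, was undetected in all WT cells and detected in 3 KO cells, with the KO mean at least 2.26-fold over the floor. Snrpd3 was detected in 1 cell of each genotype. KO cell 2 held 3 of the 7 ring proteins other than Snrpn above background, the fewest of any cell, whereas WT cell 4 and KO cell 4 held all 7.

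The proteins specific to the U1 and U2 particles had a median difference of -1.28, with 1 of 4 at least 5-fold lower. Snrpc, the U1 protein that contacts the 5′ splice site, was at 12.63, 10.40, 11.09 and 8.70 in WT cells and at 7.67, 7.95, 5.64 and 10.57 in KO cells. KO cell 4 lay inside the WT range and the other 3 KO cells below it, and the difference was -2.74 (10.71 ± 1.63 and 7.96 ± 2.02). It was -2.10 without WT cell 1 and -1.97 without KO cell 3, in both cases under 5-fold. Snrpa, which binds a stem-loop of U1, differed by -1.57 with 1 low cell in WT at 5.94 and KO cell 1 at the floor. The U2 proteins Snrpb2 and Snrpa1 differed by -0.99 and 0.06, and each was at the floor in cells of both genotypes.

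The SF3a and SF3b subunits had a median difference of -0.77 and 1 of 9 members at least 5-fold lower. Sf3b3 was well above background in all 8 cells, but after scaling its signal lay at the floor in WT cell 1 and in KO cells 1 and 3. It stood at 5.64, 11.97, 13.53 and 11.49 in WT and 5.64, 9.82, 5.64 and 11.48 in KO cells, a difference of -2.51 with SDs of 3.45 and 2.97. The groups overlapped, and leaving out WT cell 2, 3 or 4, or KO cell 1 or 3, brought the difference to between -2.24 and -1.56, under 5-fold. Sf3b2 varied as widely, at 5.64, 10.07, 9.13 and 10.93 in WT and 13.14, 6.42, 7.06 and 6.03 in KO cells, with a difference of -0.78. Without KO cell 1, the highest of the 8 cells, that difference was -2.44.

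The SF3a complex contained both the steadiest member and one of the highest differences. Sf3a2 was at 13.10, 12.65, 11.59 and 11.62 in WT and 11.85, 12.81, 12.28 and 12.17 in KO cells, with an SD of 0.56 over the 8 cells and a difference of 0.04. Sf3a1 differed by 1.56 but was at the floor in 1 cell of each genotype, WT cell 3 and KO cell 3, and passed 5-fold without WT cell 1 or without KO cell 3. Sf3a3 differed by -1.08. Sf3b5, a small SF3b subunit, was between 9.26 and 14.41 in 7 cells and undetected in KO cell 2, and differed by -0.03. Sf3b1, the large subunit that is often mutated in blood cancers, was detected in 1 WT cell and in 0 KO cells with its probe.

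**Figure D4:**
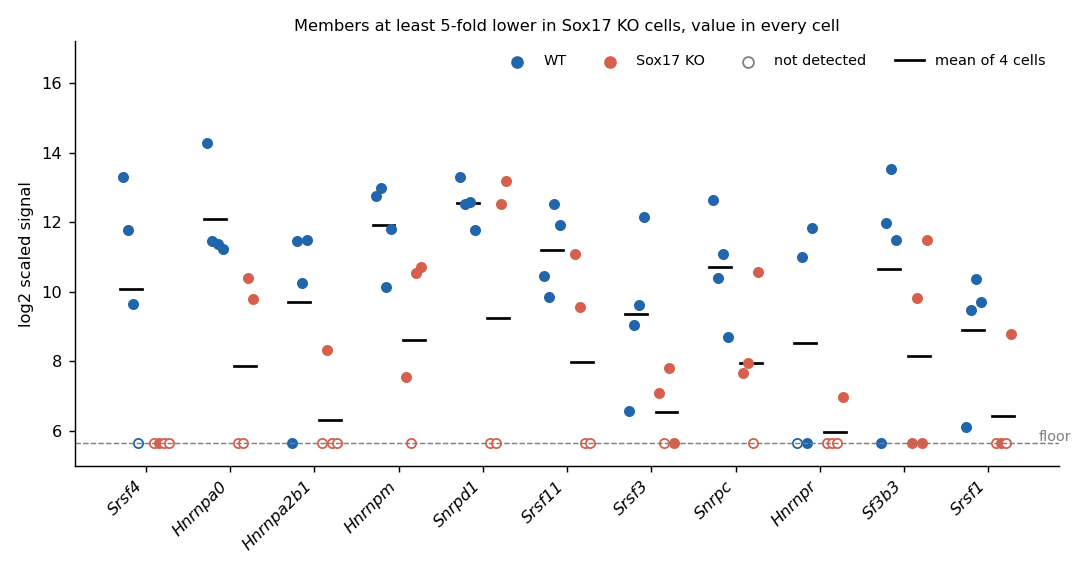
Log2 scaled signal in every cell for the 11 members at least 5-fold lower in Sox17 KO cells, with WT in blue, KO in orange, open symbols where the signal was not well above background, black bars for the mean of 4 cells and a dashed line at the floor (5.64). Hnrnpa0 is the member whose KO values all lie below its WT values, and in the others at least 1 KO cell reaches the WT values or at least 1 WT cell is at the floor.

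The SR proteins had a median difference of -1.34, and 4 of 11 were at least 5-fold lower with 0 higher. Srsf11, an SR protein that acts at 3′ splice sites, was detected in all 4 WT cells, at 10.46, 9.86, 12.52 and 11.92, and in KO cells 1 and 2, at 11.08 and 9.56, while KO cells 3 and 4 were at the floor. The difference of -3.21 (11.19 ± 1.24 and 7.98 ± 2.77) stayed past 5-fold without any single cell. These were the KO cells in which Snrpd1 was high, so the members at the floor were not the same in each KO cell.

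Srsf1, the founding SR protein, was at 6.12, 9.48, 10.36 and 9.71 in WT and at 5.64, 5.64, 5.64 and 8.80 in KO cells, a difference of -2.48. It was the member nearest to the 5-fold line from within, and leaving out any cell but WT cell 1 or KO cell 4 put it under the line, at -2.30 or nearer to 0. Srsf3, the smallest SR protein, was at 6.58, 9.05, 9.62 and 12.16 in WT and 7.10, 5.64, 7.82 and 5.64 in KO cells, a difference of -2.80 that was -1.86 without WT cell 4. Srsf4 was detected in 3 WT cells, at 13.31, 11.79 and 9.64, and was at the floor in WT cell 4 and in all 4 KO cells, 1 of which was still marked as detected. Its difference of -4.45 was the largest of any member, and its size is set in part by the floor.

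The remaining SR proteins differed by less than 5-fold, in both directions. Srsf7 had the highest difference of the 52, 1.72, with 5.64, 8.98, 6.96 and 9.63 in WT and 11.51, 9.06, 5.64 and 11.89 in KO cells, and the groups overlapped. It passed 5-fold without WT cell 4, without KO cell 3 and under quantile normalization. Srsf2, which encodes an SR protein of nuclear speckles, was detected in all 8 cells, and its chosen probe varied by over 4 log2 units within each group. That probe read 6.62, 5.83, 11.00 and 8.57 in WT and 7.39, 6.86, 11.39 and 8.72 in KO cells, for a difference of 0.58. A second Srsf2 probe, detected in 3 WT and 4 KO cells, varied less. It read 5.64, 7.22, 7.86 and 8.47 in WT and 7.97, 7.26, 7.81 and 6.74 in KO cells, for a difference of 0.15. Srsf6 differed by -1.49 and was between 10.25 and 12.63 in 5 cells and at 6.44 or below in the other 3. Srsf5 differed by 0.53. Srsf9 and Srsf10 were each detected in 1 WT cell and in 0 KO cells, with differences of -1.34 and -0.48.

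The hnRNPs had a median difference of -1.30, with 17 of 20 below 0, 1 above and 2 at 0, and 4 were at least 5-fold lower. Hnrnpa0, an hnRNP of the A/B type known for binding AU-rich elements, was at 14.28, 11.46, 11.39 and 11.24 in WT and at 5.64, 5.64, 10.40 and 9.81 in KO cells. All 4 KO values were below all 4 WT values, which held for 1 of the 52 members and for 0.459% of all genes, or 1.97% of those detected in at least 4 cells. The difference was -4.22 (12.09 ± 1.46 and 7.87 ± 2.59) and stayed past 5-fold without any single cell.

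Hnrnpm and Hnrnpa2b1 followed. Hnrnpm was at 12.76, 12.98, 10.15 and 11.80 in WT and 7.54, 5.64, 10.54 and 10.71 in KO cells, so KO cells 3 and 4 lay above WT cell 3 and the others far below. Its difference of -3.31 was past 5-fold without any single cell, but only just without KO cell 2 (-2.32, at the line). Hnrnpa2b1, which encodes A/B-type hnRNPs that also bind RNAs for transport, was at 5.64, 11.45, 10.26 and 11.49 in WT and was detected in KO cell 2 alone, at 8.33. Its difference was -3.40. Hnrnpr was above the floor in WT cells 2 and 4, at 11.00 and 11.85, and in KO cell 4, at 6.98. Its difference of -2.56 rested on those WT cells and was -1.73 without WT cell 2 and -1.45 without WT cell 4. Hnrnpr and Srsf4 did not meet the rule by which genes were named, because each was missed in at least 1 cell of both genotypes, and they were added after their values were seen.

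Just outside the 5-fold line stood Hnrnpul2 at -2.21, Sf3b4 at -2.19 and Hnrnpd at -2.17. Hnrnpul2 was above background in 3 WT cells and in 0 KO cells, at least 4.62-fold over the floor on average, and Hnrnph2 showed the same counts, at least 2.92-fold. Hnrnpd, also known as AUF1, was at 13.07, 10.91, 12.61 and 12.34 in WT and 8.99, 12.01, 12.08 and 7.18 in KO cells, with 2 KO cells inside the WT range.

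The hnRNPs that were read in every cell differed less, mostly in the same direction. Hnrnpc, which binds uridine tracts in introns, was at 13.95, 12.23, 12.64 and 12.67 in WT and 11.73, 12.25, 12.59 and 7.48 in KO cells, and its difference of -1.86 came mainly from KO cell 4. Hnrnpu, a scaffold-attachment protein, differed by -1.76 with KO cells 2 and 4 at 8.11 and 8.71 and the other 6 cells between 11.01 and 12.30. Hnrnpab differed by -1.20 and Hnrnpdl by -0.77. Hnrnph1 differed by -1.23 through KO cell 3 alone, which was at the floor while the other KO cells were at 14.38, 11.95 and 12.24. Without that cell the difference was 0.57.

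Hnrnpk, a poly(C)-binding hnRNP, was as steady as Sf3a2. Its values were 10.21, 9.27, 9.21 and 9.50 in WT and 9.69, 9.34, 8.84 and 10.57 in KO cells, with an SD of 0.56 over the 8 cells and a difference of 0.06. Hnrnpa1, which opposes SR proteins at many exons, lay between 11.59 and 14.26 in WT and between 11.65 and 12.95 in KO cells and differed by -0.58 with an SD of 0.86. Hnrnpf was at 12.98, 11.57, 11.85 and 12.92 in WT and 11.82, 11.02, 10.59 and 13.21 in KO cells, a difference of -0.67. These values show transcripts of the same families that were read at similar levels in every cell of both genotypes. Over the 16 members detected in all 8 cells the SD ran from 0.56 to 3.27 for Sf3b3, the widest.

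A second readable probe repeated the pattern from cell to cell in some members and not in others. Of the 52 members 27 had more than 1 probe, and 17 further probes of 13 genes were detected in at least 4 cells. The difference of 11 of these 17 had the sign of the chosen probe and 16 lay within 5-fold of it. For 8 of the 17, from 6 of the 13 genes, every cell was within 2-fold of the chosen probe after a constant offset, and in the other 9 the largest departure was between 2.01 and 6.23 on the log2 scale. The 3 probes of Snrpd2 differed by 1.61, 1.64 and 1.69 and no cell departed by more than 0.14, although the files placed 1 of them on chr7:19737898-19737957 and the others on chromosome 10, where they overlap. Snrpe, Snrpg, Sf3b5, Snrpa1 and Hnrnpk repeated likewise, with the floor cells of Snrpe and Sf3b5 at the floor in both probes. The probes of Snrpa1 start 7 bases apart and overlap, so they are not separate readings. The second probe of Snrpe and both probes of Snrpg were placed on other chromosomes than the gene. The pair of Sf3b5, shown by its first 30 bases, does not overlap.
Sf3b5, probe used, chr10:12728767-12728826: tgtatcgcctgacctgcgtacctgtggagg
Sf3b5, other probe, chr10:12728837-12728896: ttgtgaactgtgcagaaggagtgatcccag

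**Figure D5:**
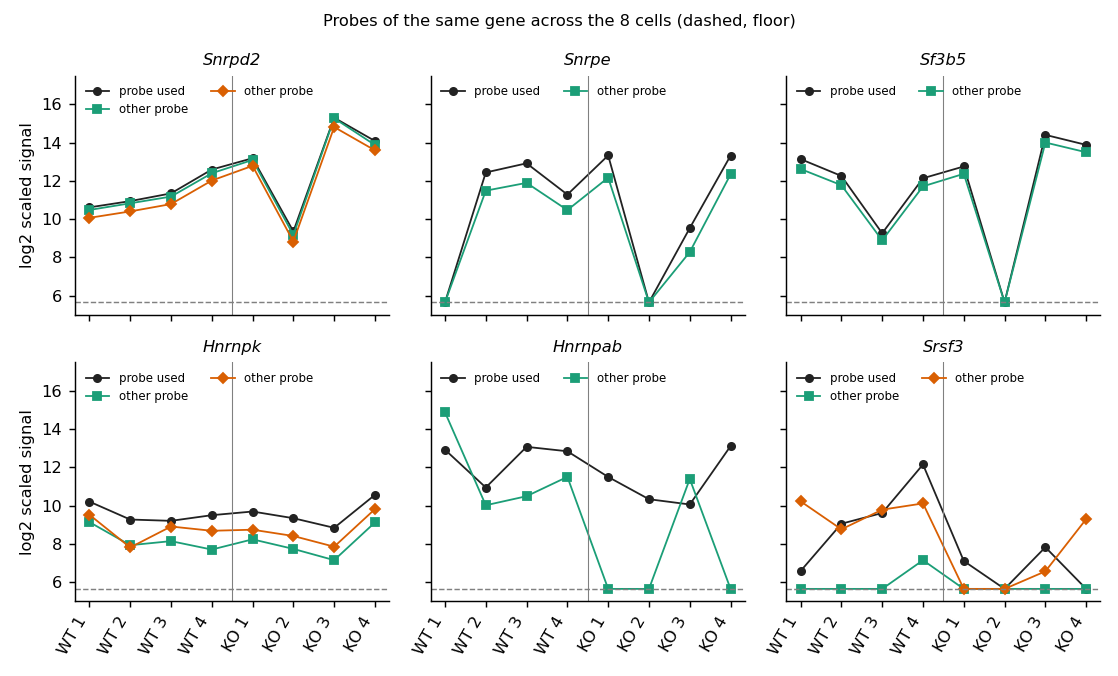
Log2 scaled signal of every probe of 6 members across WT cells 1 to 4 and KO cells 1 to 4, with the probe used in black, the other probes in green and orange and the floor dashed. For Snrpd2, Snrpe, Sf3b5 and Hnrnpk the probes rise and drop in the same cells, whereas those of Hnrnpab and Srsf3 part in several cells.

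Other members gave a different account by probe. The second probe of Hnrnpab, which starts 1286 bases further along the transcript, was above background in every WT cell and in 1 KO cell and differed by -4.64, against -1.20 for the probe used. Srsf3 had a second probe at -2.94, close to the -2.80 of the probe used, but with WT cell 1 at 10.23 in place of 6.58 and KO cell 4 at 9.30 in place of the floor. Its remaining probe was detected in 1 cell. The 7 probes of Hnrnpa3 were placed on 7 chromosomes and differed by -2.01 to 0.91, so no single direction can be given for that gene. The other probe of Hnrnpa0 was detected in no cell, and that of Hnrnpa2b1, which carries the AATAAA printed above, in 1 WT cell, so the differences of both rest on 1 probe each. With all probes of a gene averaged, 5 members in place of 11 were at least 5-fold lower, and only 4 of them were among the 11.
Hnrnpab, probe used, chr11:51414914-51414973: tagtacaaattacggaaagagccagcgacg
Hnrnpab, other probe, chr11:51413628-51413687: gggatctgagctttgtataacaaccacttt
Srsf3, probe used, chr17:29173333-29173392: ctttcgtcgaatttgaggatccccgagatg
Srsf3, second probe, chr17:29178485-29178544: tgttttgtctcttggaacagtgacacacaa

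The promoters of the members were read from RefSeq (GRCm38.p6), 250 bases upstream of the start, which were on record for 46 of the 52 members and for 10 of the 11 lower ones. The motif CCGGAA, the core bound by ETS factors, was found on either strand in 22 of the 46 (47.8%), against 12.2% of all 27025 promoters and 21.3% of promoters of genes detected in at least 4 cells. CCAAT was found in 21 members (45.7%), against 34.5% and 36.2%, and ACAAT, the core bound by SOX factors, in 9 (19.6%), against 28.3% and 20.1%. The members' promoters had a median GC content of 60.6% where that of all promoters was 52%. Of the 10 lower members with a sequence, 6 held CCGGAA, 5 held CCAAT and 2, Hnrnpm and Snrpc, held ACAAT. A match is a description of the letters and not of binding. The stretches around matches of lower members are shown with the motif, or its reverse complement in capitals (TTCCGG for the ETS core, ATTGG for that of CCAAT and ATTGT for the SOX core).
Snrpc, ACAAT, chr17:27839864-27839893, plus strand: gggggggtcaccACAATttgagaagctgga
Snrpc, CCGGAA, chr17:27840036-27840065, plus strand: gtagggcagaggCCGGAAgcggaagtccta
Hnrnpm, ACAAT, chr17:33685615-33685644, minus strand: atgtgcgctcgtATTGTaagttcgaatgag
Srsf1, CCGGAA, chr11:88047248-88047277, plus strand: agatgcccaggtTTCCGGagcaacagctca
Srsf11, CCGGAA, chr3:158036693-158036722, minus strand: caaaagctcacaCCGGAAgccccgaccacg
Hnrnpa0, CCAAT, chr13:58128605-58128634, minus strand: agcggccaggcgATTGGccggcgtcccggc

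The rest of the splicing machinery was read from 154 further genes in 8 lists. Of these, 23 (14.9%) were at least 5-fold lower and 3 (1.95%) at least 5-fold higher in the KO cells, with a median difference of -0.32, so the lower share was between that of the 52 members and that of genes detected in at least 4 cells. They were detected in 344 combinations of gene and cell in WT and 253 in KO. The U2 auxiliary and branch site factors had 4 of 14 lower (28.6%) and 0 higher, and the other hnRNP-like regulators 7 of 27 lower (25.9%) and 1 higher, with medians of -0.31 and -0.99. The exon junction complex had the lowest median, -1.26, with 1 of 11 lower (9.1%) and 32 against 16 detections. The Prp19 complex and catalytic step factors had 3 of 32 lower (9.4%), and the SR-related factors and kinases 3 of 25 lower (12%) and 1 higher. The snRNP assembly factors had 2 of 13 lower (15.4%) and the Lsm proteins 1 of 10 (10%). The remaining U1, tri-snRNP and minor snRNP proteins had 2 of 22 lower (9.1%) and 1 higher. Of all genes 3.19% were lower, and of those detected in at least 4 cells 10.0%, so several of these lists were near the latter share. The lists were not filtered by detection, and 18 of the 154 genes were detected in 0 cells. Their shares and the 10.0% therefore have unlike bases.

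Of these genes, the largest differences among those detected in every cell of at least 1 genotype were as follows. Arglu1, an SR-related protein, was at 7.06, 14.00, 11.13 and 10.98 in WT cells and not well above background in any KO cell, at least 35.5-fold lower. Sf1, which recognises the branch site before U2 binds, was at 14.30, 12.48, 12.77 and 11.41 in WT and 5.64, 6.83, 5.64 and 12.89 in KO cells, a difference of -4.99. Xab2, a factor of the Prp19 complex, differed by -4.40 with all KO cells at the floor. In the other direction Snrnp27, of the tri-snRNP, differed by 4.03, Clasrp, an SR-related protein, by 3.95 and Wdr77, of the methylosome that prepares Sm proteins, by 1.97, each with at least 1 KO cell within the WT range. Rbm10, an RNA-binding splicing regulator detected in 3 WT cells and 0 KO cells, differed by -4.55, and Tial1, detected in 3 cells of each genotype, by 2.65, but neither met that detection rule, and both were named after their values were seen.

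Lists of other housekeeping machinery gave the size of such differences outside splicing. The 98 cytosolic ribosomal protein genes had 0 members at least 5-fold lower and 2 higher, a median of 0.12, and 344 and 342 detections in WT and KO cells. The 49 proteasome subunits had 7 lower (14.3%) and 2 higher (4.1%) with a median of -0.22. The 54 translation initiation factors had 8 lower (14.8%) and 1 higher (1.9%) with a median of -0.69. The lower shares of both lists were close to the 14.9% of the 154 other spliceosome genes. The ribosomal list, 80 of whose genes were read in all 8 cells, had a median opposite in sign to that of the spliceosome genes. Among genes read in all 8 cells the medians of these lists were above 0, at 0.22 for the 80 ribosomal genes, 0.69 for 13 proteasome subunits and 0.23 for 10 initiation factors. The 17 other spliceosome genes of that kind had a median of 0.26, against -0.72 for the 16 members, 10 of which were hnRNPs. The lists within the 17 were unlike. The median was -1.71 for 5 other hnRNP-like regulators and -2.89 for 2 Lsm proteins, and 1 exon junction gene was at -0.85. It was 0.22 for 4 U1, tri-snRNP and minor snRNP proteins and 0.38 for 3 U2 auxiliary and branch site factors. The 1 Prp19 and catalytic step gene was at 0.91 and the 1 SR-related gene at 0.37.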

How the data were processed

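Each single-cell array came as 1 deposited file, which the scanner program Agilent Feature Extraction wrote (version 12.0.2.2 by its header). The authors amplified the cDNA of each cell from its poly(A) end, transcribed it from a T3 promoter and labelled it with Cy3. The values used were intensity values as deposited, the processed signal, on a linear scale and corrected for background by the scanner software. Amplification from 3′ ends means that probes far upstream in a transcript may read low.

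Outlier spots marked by that program, 146 to 220 per array, were removed, and replicate spots of 1 probe were averaged on the log2 scale. Each array was shifted until its 50th percentile over the 5301 probes well above background on all 8 arrays equalled the mean of the arrays (shifts of -0.76 to 0.68). Values under 50 were then set to 50 (the authors name this step before scaling), and values at this floor have no order. Differences are means of 4 KO cells minus means of 4 WT cells, and a member is called from a factor of 5 upwards, which is 2.32 in log2 units. The 12 genes lacking a value in any cell were not counted. Between cells of a genotype no test was made, and the number of arrays limits the precision. The calculation was checked on simulated data with known changes.

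Genes were named by rule: members above background in every cell of 1 genotype and at least 5-fold different, the 5 steadiest and 5 most variable of those detected in all 8 cells, members whose probes disagreed by 5-fold with opposite sign, and, among further spliceosome genes above background in every cell of 1 genotype, the 3 with the largest differences each way. Members and lists were chosen with earlier results of these data known, and other members were described for completeness. Analyses used Python 3.11.15 with pandas 2.3.3, and limma 3.58.1 for normexp.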

Additional observations from a re-analysis of the deposited data

Results flagged for a closer look

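Among the 40 groups of 4 cells examined (counts per cell, the mean deviation of the members, and the members detected in all 8 cells), 5 held a cell that stood apart from the other 3 by Dixon's ratio at its 95% critical value. Chance alone marks about 1 in 20 such groups. WT cell 1 detected 35 members where the nearest WT cell detected 41, and 21 of its members were at the floor where the nearest WT cell had 12. Hnrnpab was at 10.95 in WT cell 2 with the nearest WT cell at 12.85. Hnrnpc was at 7.48 in KO cell 4 with the nearest KO cell at 11.73, and Sf3b2 was at 13.14 in KO cell 1 with the nearest KO cell at 7.06.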

How the results depend on the processing

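No paired analysis was possible because the labels join no WT cell with a KO cell. The median difference over all members, -0.88, was below 0 in all alternatives. It was -1.26 with the percentile taken over all non-control probes and -1.21 with no floor, and -0.99 to -0.76 with 1 cell left out. The number of members at least 5-fold lower, 11, was 17 with no floor, 7 with a floor of 100 and 25 at 2-fold. It was 5 with all probes of a gene averaged, only 4 of them among the 11. With 1 cell left out it was 8 to 14. The number at least 5-fold higher, 0, was 1 under quantile normalization (Srsf7), 1 with no floor (Snrpn), 2 with the median of cells (Sf3a1 and Snrpd2) and 4 at 2-fold. With 1 cell left out it was 0 to 2 (Sf3a1 without WT cell 1, Srsf7 without WT cell 4, Snrpd2 without KO cell 2, Sf3a1 and Srsf7 without KO cell 3). The difference in members detected per cell, -7.00, was -8.67 to -5.67 with 1 cell left out and -8.75 to -5.50 under the 3 other definitions of detection. The median of all genes shifted to 0.24 with normexp correction and 0.34 with no floor, where that of the members was -0.75 and -1.21. Srsf4, Srsf11 and Hnrnpm were past 5-fold under all 17 alternatives, Hnrnpm only just without KO cell 2 (-2.32). Each of these genes has 1 probe, so the mean of all probes could not change its value. Hnrnpa0 and Hnrnpa2b1, which have 2 probes each, were past 5-fold under all but the mean of all probes (-2.11 and -1.77). No called member changed sign. Of the 357 values of the 21 named members, 4 moved by more than the spread between cells. That spread was wide for members with cells at the floor, with an SD of 4.18 between KO cells for Snrpd1. A member could thus lose its 5-fold call, or an uncalled one change sign, without counting as moved, so the 4 is no measure of stability. Beyond the cells named in the report, Snrpc was under 5-fold with quantile normalization (-1.98), and Sf3b3, Srsf3, Srsf1 and Hnrnpr with a floor of 100 (-2.26, -2.31, -1.87 and -2.31). Srsf1 and Hnrnpr were also under it with normexp correction. Snrpc, Sf3b3, Srsf3, Srsf1 and Hnrnpr were under it with the mean of all probes. Of the 17 alternatives, Srsf1 was under 5-fold in 9, Sf3b3 in 7, Hnrnpr in 5, Snrpc in 4, Srsf3 in 3 and Snrpd1 in 2. The causes of these shifts were not tested. Signal over background limits the reading of members near the floor, and 4 cells a genotype from 1 slide each limit every comparison.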
